A study of Mus musculus with 6 samples.

Results

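TRP channels and deep-brain opsins are candidate temperature and light sensors of the preoptic area (POA), the hypothalamic region that sets body temperature. The genes described here were chosen by name, 8 TRP channel genes (Trpm2, Trpm3, Trpm4, Trpm7, Trpc1, Trpc4, Trpc5 and Trpv2) and 2 opsin genes (Opn3 and Opn5), which make 10 of the 27884 genes in the deposited table. The study compared the RNA carried by PNOC cells with that of whole POA tissue, in work on how these cells restrain heat production by brown fat. All animals were female NuTRAP::Pnoc-Cre mice aged 17 to 18 weeks, so that the control libraries came from the same genotype and tissue as the purified ones. Each of the 3 replicates was a pool of POA punches from 3 animals. From each pool, RNA bound to EGFP-tagged ribosomes was pulled down with an antibody against GFP (the 3 IP libraries), and the total RNA of the pool gave the 3 input libraries. The tag depends on Pnoc-Cre, so it marks any cell of the punch in which this Cre was active and is not limited to 1 preoptic nucleus, and an IP from mice without Cre was not analysed here.

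TRP channels are cation channels, and several of them open when the membrane warms or cools. In the TRPM branch, TRPM2 opens with warmth and ADP-ribose and is known in preoptic neurons as a heat sensor that limits fever, TRPM3 opens with heat and pregnenolone sulfate, TRPM4 is opened by intracellular calcium and passes monovalent ions, and TRPM7 joins a channel for divalent ions to a kinase. TRPC channels open downstream of receptors that activate phospholipase C, with TRPC1 as a partner subunit of TRPC4 and TRPC5, and TRPC5 is also a cold sensor of peripheral tissue. TRPV2 responds to strong heat and to stretch. OPN3 (encephalopsin) and OPN5 (neuropsin) are light-sensitive G protein-coupled receptors found in deep brain, and OPN5 of preoptic neurons has been tied to the suppression of brown fat heat production by violet light.

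The IP libraries held 48204567 to 51380354 counts each and the input libraries 49068467 to 53056642. Pnoc, the gene behind the Cre driver, was at 41.1 to 47.7 CPM (counts scaled to a common library size) in IP and at 7.51 to 13.2 CPM in input, which checks the labels. A part of the neuronal genes rose in IP, and glial markers fell. Of 15 pan-neuronal genes, such as the neuronal tubulin gene Tubb3, 8 rose and 1 fell (median log2 fold change 0.56), and of 10 GABAergic neuron genes 5 rose and 0 fell. The pan-neuronal count of 8 was 3 if input replicate 3, or the IP library of pool 2 or of pool 3, was left out, 4 without pool 2 and 0 without pool 3, and it was 4 with library totals as the only scaling. The GABAergic count was 3 without pool 3. All 12 astrocyte, 12 oligodendrocyte and 13 microglia markers tested were lower in IP, with medians of -2.66, -3.23 and -3.15. IP holds RNA bound to tagged ribosomes, and input holds total RNA of the same pool. Differences between kinds of cell and differences between ribosome-bound and total RNA cannot be told apart here, for any gene below.

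Of the 10 genes, Trpm2, Trpm4 and Trpv2 rose in IP, Trpm3, Trpm7 and Trpc5 fell, and Trpc1, Trpc4, Opn3 and Opn5 did not pass the test. The test was edgeR's quasi-likelihood test over 18640 genes, with Benjamini-Hochberg adjustment and a threshold of 0.05. Over all genes tested, 12.9% were called higher, 17.1% lower and 30.0% either way, with a median log2 fold change of -0.07. Of the genes described here, 3 were higher, 3 lower and 6 of 10 called either way, with a median of 0.50. The size of this median of 0.50 was not stable. Under a stricter 1 CPM filter, where Opn5 had no value, it was 0.31 over 9 genes. With the pool as a replicate block it was 0.39. It was 0.23 without IP replicate 1 and 0.64 without IP replicate 3. With library totals as the only scaling, 32.0% of the calls over all genes were higher, against 42.9% with the scaling used here, and the 6 calls described here were all made with either scaling. The 3 IP libraries lay wholly above the 3 input libraries for the 3 genes that rose and wholly below for the 3 that fell, and over all genes tested these shares were 21.7% and 26.0%. Without both libraries of pool 3, 1 of the 10 was called, Trpm3, among 133 higher and 742 lower over all genes. All 10 genes passed the low-count filter, Opn5 through its IP libraries alone. The authors' deposited table gave the 6 called genes adjusted p from 5.89e-10 (Trpm3) to 0.00708 (Trpm7), by DESeq2, and the other 4 from 0.423 to 0.788.

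**Figure D1:**
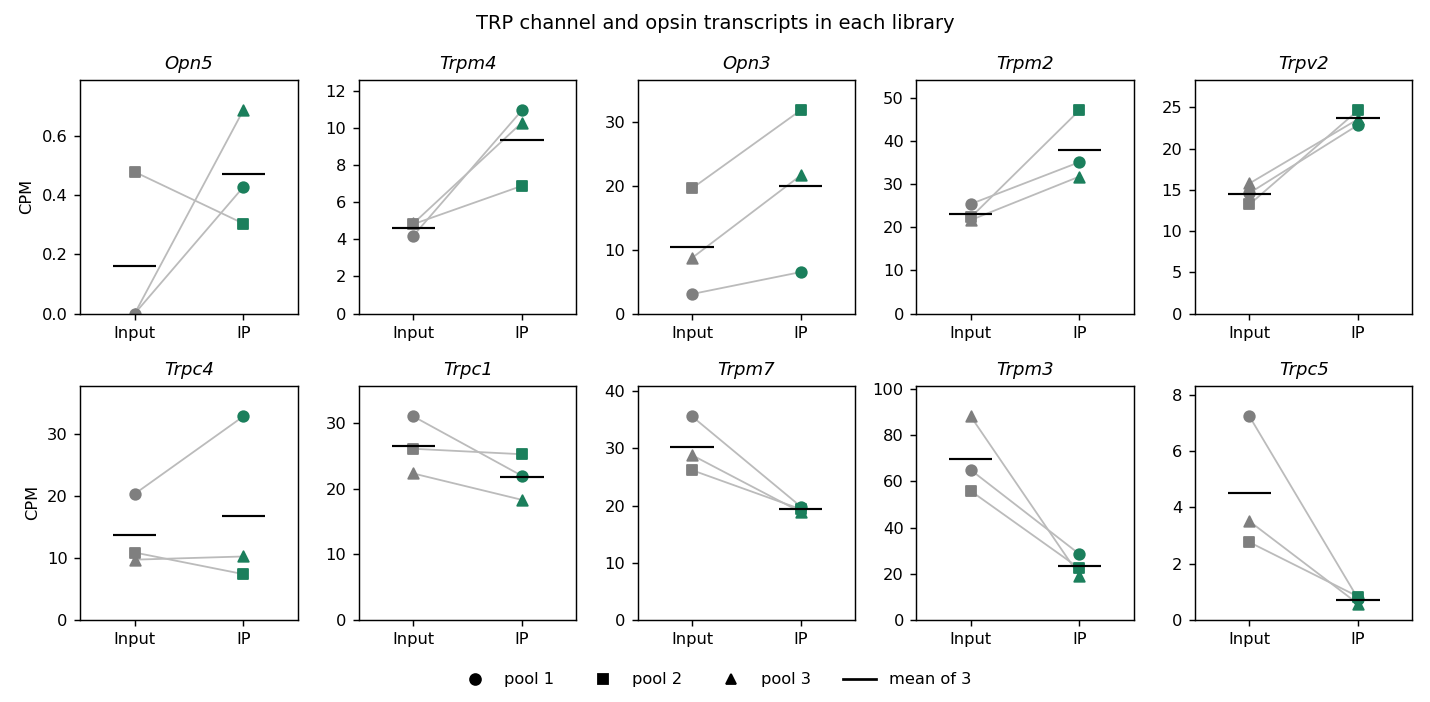
CPM of each of the 10 genes in the 3 input libraries (grey) and the 3 IP libraries (green), with lines joining the 2 libraries of a pool and black bars at the group means, on axes that start at 0. The groups are apart for Trpm4, Trpm2 and Trpv2 (IP higher) and for Trpm7, Trpm3 and Trpc5 (IP lower), while Opn3 keeps the same order of pools in both groups.

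Promoters are shown for 4 of the 6 genes called, Trpm2 and Trpv2, which rose, and Trpm3 and Trpc5, which fell. Each line gives the 250 bases before the start of a RefSeq transcript (the most upstream one listed for Trpv2 and for Trpm3), 5′ to 3′ on the gene's strand. The RefSeq table is on GRCm38.p6, and each window was located by an exact match in GRCm39. Capitals mark any of 5 short motifs on either strand: the GC box GGGCGG, the heat shock element GAANNTTC, the cAMP response element core TGACG, the CCAAT box and the TATA box TATAAA.
Trpm2 (chr10:77805707-77805956, minus strand): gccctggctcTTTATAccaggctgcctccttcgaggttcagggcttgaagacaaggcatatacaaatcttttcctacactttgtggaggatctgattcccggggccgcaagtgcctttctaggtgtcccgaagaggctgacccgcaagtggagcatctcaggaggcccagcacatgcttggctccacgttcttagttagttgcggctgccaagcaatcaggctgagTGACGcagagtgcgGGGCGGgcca
Trpv2 (chr11:62465062-62465311, plus strand): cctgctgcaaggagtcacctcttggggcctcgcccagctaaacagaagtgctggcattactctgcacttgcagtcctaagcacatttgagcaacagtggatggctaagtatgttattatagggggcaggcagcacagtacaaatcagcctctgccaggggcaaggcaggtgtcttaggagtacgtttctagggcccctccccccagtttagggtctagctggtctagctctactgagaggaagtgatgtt
Trpm3 (chr19:22116160-22116409, plus strand): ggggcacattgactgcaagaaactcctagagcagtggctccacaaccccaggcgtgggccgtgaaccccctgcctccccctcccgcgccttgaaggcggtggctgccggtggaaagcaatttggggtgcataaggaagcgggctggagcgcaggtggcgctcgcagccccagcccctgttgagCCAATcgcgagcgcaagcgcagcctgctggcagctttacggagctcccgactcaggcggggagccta
Trpc5 (chrX:143471177-143471426, minus strand): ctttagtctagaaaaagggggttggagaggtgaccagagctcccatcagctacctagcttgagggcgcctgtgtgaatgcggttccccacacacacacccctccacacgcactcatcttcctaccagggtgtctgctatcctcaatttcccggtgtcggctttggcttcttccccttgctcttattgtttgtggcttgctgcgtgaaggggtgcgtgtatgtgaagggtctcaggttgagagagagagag
The windows differ in sequence make-up within each direction. The Trpv2 window holds 2 CpG dinucleotides, that of Trpc5 7, that of Trpm2 10 and that of Trpm3 17, against a median of 6 over 32851 windows of this length. The window of Trpm7, which also fell, is not printed. It holds 26 CpG dinucleotides and none of the motifs. By letters alone, the Trpm2 window holds 1 GC box, 1 cAMP response element core and 1 TATA box, and the Trpm3 window 1 CCAAT box. The TATA letters of Trpm2 are on the opposite strand, at the end of the window far from the transcript start. That window lies inside the Trpm2 gene, which reaches 77806397 at its 5′ end. The letters of the heat shock element are in none of the 4 windows printed, but they are in 1 of the other windows that the table lists for Trpm3 and in 1 of those for Trpv2, at starts further downstream. Of all windows 32.7% hold the GC box, 6.69% the heat shock element, 17.8% the cAMP element core, 33.8% the CCAAT box and 12.4% the TATA box. Trpm4 and Opn5 had no entry in that table.

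Trpm2, the warmth sensor of preoptic neurons, was higher in IP in every pool. The gene (ENSMUSG00000009292, chromosome 10, 77743556 to 77806397, minus strand, mm39) was at 35.1, 47.1 and 31.7 CPM in IP replicates 1, 2 and 3 and at 25.4, 22.3 and 21.6 CPM in input. The lowest IP library lay above the highest input library, and IP replicate 2 was the highest of the 6. The means were 37.9 ± 8.07 against 23.1 ± 1.99 CPM (SD, n = 3), and the log2 fold change of 0.72 ± 0.18 (SE) amounts to 1.64-fold (edgeR's quasi-likelihood test, adjusted p = 0.0182). Within pools the log2 ratio of IP to input was 0.47, 1.08 and 0.55. The call was lost without input replicate 3 or IP replicate 2 (adjusted p = 0.0657 and 0.0659, edgeR) and without both libraries of pool 2 or of pool 3 (adjusted p = 0.0854 and 0.111, edgeR), with log2 fold changes from 0.54 to 0.79 in these 4 fits. Microglia also express Trpm2. All 13 microglia markers were lower in IP, with a summed level of 24.6 to 34.9 CPM in IP against 223 to 260 CPM in input and none at 0 in any library. The part of microglial RNA in the Trpm2 levels was not tested.

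Trpm4, the calcium-activated channel, had the largest rise among the 6 genes called. The gene (ENSMUSG00000038260, chromosome 7, 44952056 to 44983204, minus strand) was at 10.9, 6.87 and 10.3 CPM in the IP replicates and at 4.19, 4.81 and 4.85 CPM in the input replicates. The input libraries were close together, and IP replicate 2 stood lower than the other IP libraries. The log2 fold change of 1.02 ± 0.24 (SE) amounts to 2.03-fold (edgeR's quasi-likelihood test, adjusted p = 0.0152), with pool ratios of 1.38, 0.51 and 1.08 on the log2 scale. The call was lost without IP replicate 1 or IP replicate 3 (adjusted p = 0.0574 and 0.0569, edgeR) and without pool 1 or pool 3 (adjusted p = 0.073 and 0.15, edgeR). Trpm4 is also known from vessel walls. Of 9 tested endothelial markers 6 fell and of 8 tested mural cell markers 5 fell, and 0 of either list rose; without pool 3 the endothelial count was 2. Summed over all members, the endothelial list was at 5.99 to 6.91 CPM in IP against 19.4 to 34.3 CPM in input, with Tie1 at 0 in the 3 IP libraries. The mural list was at 11.4 to 11.9 against 55.3 to 74.7 CPM, with no member at 0 in all 3 IP libraries. The part of vessel RNA in the Trpm4 levels was not tested.

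Trpv2 had the closest IP libraries of the 3 genes that rose. The gene (ENSMUSG00000018507, chromosome 11, 62465312 to 62491341, plus strand) was at 22.9, 24.6 and 23.6 CPM in IP and at 14.6, 13.2 and 15.8 CPM in input. Its coefficient of variation was 3.78% in IP and 8.78% in input. The log2 fold change of 0.70 ± 0.15 (SE) amounts to 1.63-fold (edgeR's quasi-likelihood test, adjusted p = 0.00876), and the pool ratios were 0.65, 0.90 and 0.58 on the log2 scale. The call was kept without any 1 library and lost without both libraries of pool 2 or of pool 3 (adjusted p = 0.067 and 0.097, edgeR). Trpv2 is also known from macrophages and from the magnocellular neurons that make vasopressin and oxytocin. Of 5 magnocellular genes 1 rose and 3 fell, among them the vasopressin gene Avp at -1.65 ± 0.32 and the oxytocin gene Oxt at -1.22 ± 0.35 (log2 fold change, SE), and the list's summed level was 199 to 348 CPM in IP and 314 to 637 CPM in input, with no member at 0. The count of 3 was 1 without input replicate 3 or pool 2 and 0 without pool 3. The part of macrophage or magnocellular RNA in the Trpv2 levels was not tested. The log2 fold changes of Trpm2 and Trpv2 lay near the pan-neuronal median of 0.56, and a difference from neuronal genes was not tested.

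**Figure D2:**
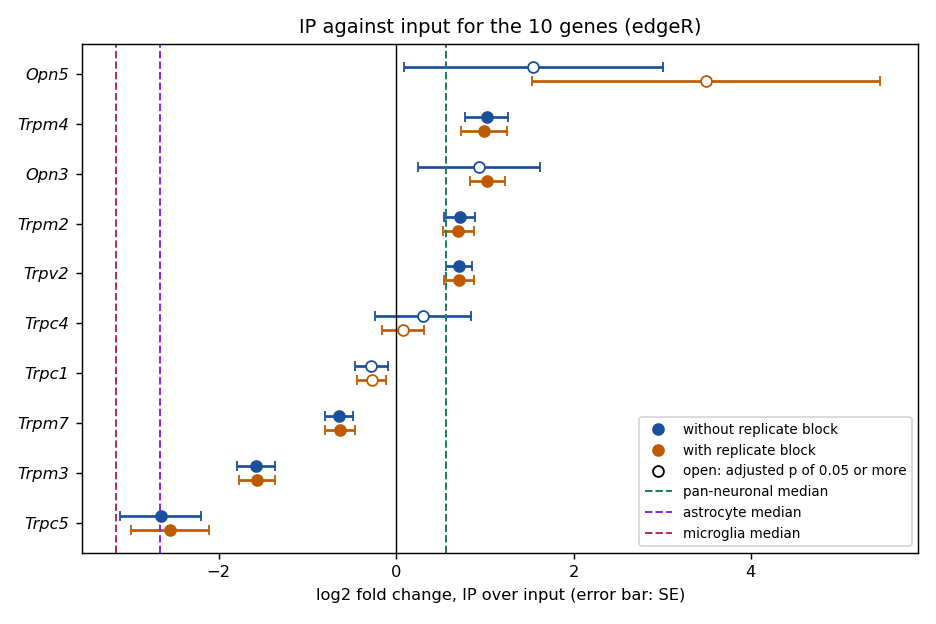
Log2 fold change of IP over input for the 10 genes, with SE as error bars, from edgeR without (blue) and with (orange) the pool as a replicate block, filled where the adjusted p was under 0.05. Dashed lines mark the medians of pan-neuronal (0.56), astrocyte (-2.66) and microglia (-3.15) lists. Trpm4, Trpm2 and Trpv2 lie to the right of 0 and Trpm7, Trpm3 and Trpc5 to the left in both fits, and Opn3 is filled only with the block.

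Trpm3 was lower in IP and kept this call in all 18 alternative analyses. The gene (ENSMUSG00000052387, chromosome 19, 22116410 to 22972774, plus strand) was at 28.5, 22.3 and 19.1 CPM in IP and at 65.0, 55.9 and 88.2 CPM in input. Every IP library lay far below every input library, and input replicate 3 was the highest. The log2 fold change of -1.58 ± 0.22 (SE) amounts to 2.99-fold (edgeR's quasi-likelihood test, adjusted p = 0.00158), and it ran from -1.80 to -1.23 over the alternatives. Within pools the log2 ratio was -1.19, -1.32 and -2.20, lowest in pool 3. Trpm3 is known for its high expression in choroid plexus epithelium. Input replicate 3 also held the most choroid plexus transcripts, a summed 483 CPM over 8 markers against 71.7 and 62.8 CPM in the other input libraries, and the IP libraries held 45.7, 31.7 and 113 CPM. Of these 8 markers 1 fell, and 3 with the replicate block. The defining marker Ttr was at 382 CPM in input replicate 3 and at 30.4 and 19.9 CPM in the others, while Folr1 was at 0 in both libraries of pool 2. Without both libraries of pool 3 the Trpm3 log2 fold change was -1.25 ± 0.22 (SE, adjusted p = 0.046, edgeR). The part of choroid plexus RNA in the Trpm3 difference was not tested.

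Trpm7, which is widely expressed, fell by 0.64 ± 0.16 on the log2 scale (SE; edgeR's quasi-likelihood test, adjusted p = 0.0172), a 1.56-fold difference. The gene (ENSMUSG00000027365, chromosome 2, 126633485 to 126718150, minus strand) was at 19.8, 19.4 and 18.9 CPM in IP and at 35.6, 26.2 and 28.8 CPM in input. The IP libraries were nearly equal, with a coefficient of variation of 2.50%, and input replicate 1 was the highest. The call was the least stable of the 6: it was lost without input replicate 3 or any 1 IP library (adjusted p from 0.0518 to 0.0661, edgeR), without both libraries of any pool (adjusted p from 0.0515 to 0.157, edgeR), and in the blocked fit corrected for transcript length (-0.40, adjusted p = 0.0595, edgeR). In the other 10 alternatives it was kept.

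Trpc5 had the largest difference of the 10 genes. It was at 0.75, 0.82 and 0.56 CPM in IP (35, 38 and 28 counts) and at 7.22, 2.76 and 3.50 CPM in input (374, 150 and 181 counts), for a gene on chromosome X (ENSMUSG00000041710, 143164667 to 143471176, minus strand). No IP library came near the input libraries, and input replicate 1 was the highest of the 3 input libraries. The log2 fold change of -2.66 ± 0.46 (SE) amounts to 6.30-fold (edgeR's quasi-likelihood test, adjusted p = 0.0041). Pool 1 was also the richest in cortical and striatal transcripts. Over 9 cortical excitatory neuron markers, input replicate 1 held a summed 1597 CPM against 295 and 310 CPM in the other input libraries. The IP libraries held 689, 407 and 415 CPM. Over 10 striatal projection neuron markers the input libraries held a summed 1989, 539 and 864 CPM and the IP libraries 780, 411 and 506 CPM. Of these 10 markers 1 rose and 3 fell. Of the 9 cortical markers edgeR tested 8 and called 0, with 0 having an unadjusted p under 0.05. Once the replicate block was added, 3 were called lower. DESeq2 gave a p-value for 6 of the cortical markers and called 0. None of the 9 was at 0 in all 3 IP libraries. Without pool 1 the Trpc5 log2 fold change was -2.17 ± 0.51 (SE, adjusted p = 0.014, edgeR), and the call was lost without pool 3 (-2.66, adjusted p = 0.071, edgeR).

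The partner subunits of TRPC5 gave no call. Trpc1 (ENSMUSG00000032839, chromosome 9, 95587135 to 95632428, minus strand) was at 22.0, 25.3 and 18.3 CPM in IP and at 31.1, 26.1 and 22.3 CPM in input, with overlapping groups. Its log2 fold change was -0.28 ± 0.18 (SE; edgeR's quasi-likelihood test, adjusted p = 0.29). Trpc4 (ENSMUSG00000027748, chromosome 3, 54063456 to 54225892, plus strand) was at 32.8, 7.37 and 10.2 CPM in IP and at 20.3, 10.9 and 9.70 CPM in input. Pool 1 was the highest pool in both groups, and the pool ratios had mixed signs, 0.69, -0.56 and 0.07 on the log2 scale. The log2 fold change was 0.30 ± 0.54 (SE; edgeR's quasi-likelihood test, adjusted p = 0.71), and it turned to -0.63 without IP replicate 1 and to -0.22 without pool 1 (adjusted p = 0.25 and 0.58, edgeR). Pool 1 is the pool with the most cortical and striatal transcripts described above. The part of these tissues in the Trpc4 and Trpc5 levels was not tested.

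Opn3 followed the pool more than the kind of library. The gene (ENSMUSG00000026525, chromosome 1, 175489987 to 175520342, minus strand) was at 6.50, 31.8 and 21.6 CPM in IP replicates 1, 2 and 3 and at 3.07, 19.6 and 8.72 CPM in input. Pool 2 was the highest and pool 1 the lowest in both groups, and IP exceeded input in each of the 3 pools, with log2 ratios of 1.08, 0.70 and 1.31. The groups overlap, and without the pairing the log2 fold change was 0.93 ± 0.69 (SE; edgeR's quasi-likelihood test, adjusted p = 0.35). With the pool as a replicate block it was 1.03 ± 0.20 (SE, adjusted p = 0.00278, edgeR), and 4 of the 10 genes were then called higher, Opn3 being the added one, where 15.2% of all genes tested were. The block with a correction for transcript length gave 0.91 (adjusted p = 0.00335, edgeR). Slc17a6, the glutamate transporter gene of most hypothalamic glutamatergic neurons, had the same order of pools, with 95.9, 285 and 197 CPM in input and 132, 284 and 218 CPM in IP. This gene was picked after its values were seen, and its part in the Opn3 levels was not tested. In GENCODE M39, 635 bases or 29.2% of the Opn3 exons are shared with Chml, a Rab escort protein gene on the same strand, so that reads there cannot be given to either gene. Chml was at 18.3 to 30.6 CPM in IP and at 19.9 to 22.1 CPM in input; it had the same order of pools as Opn3 in IP, and in input it was nearly level.

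**Figure D3:**
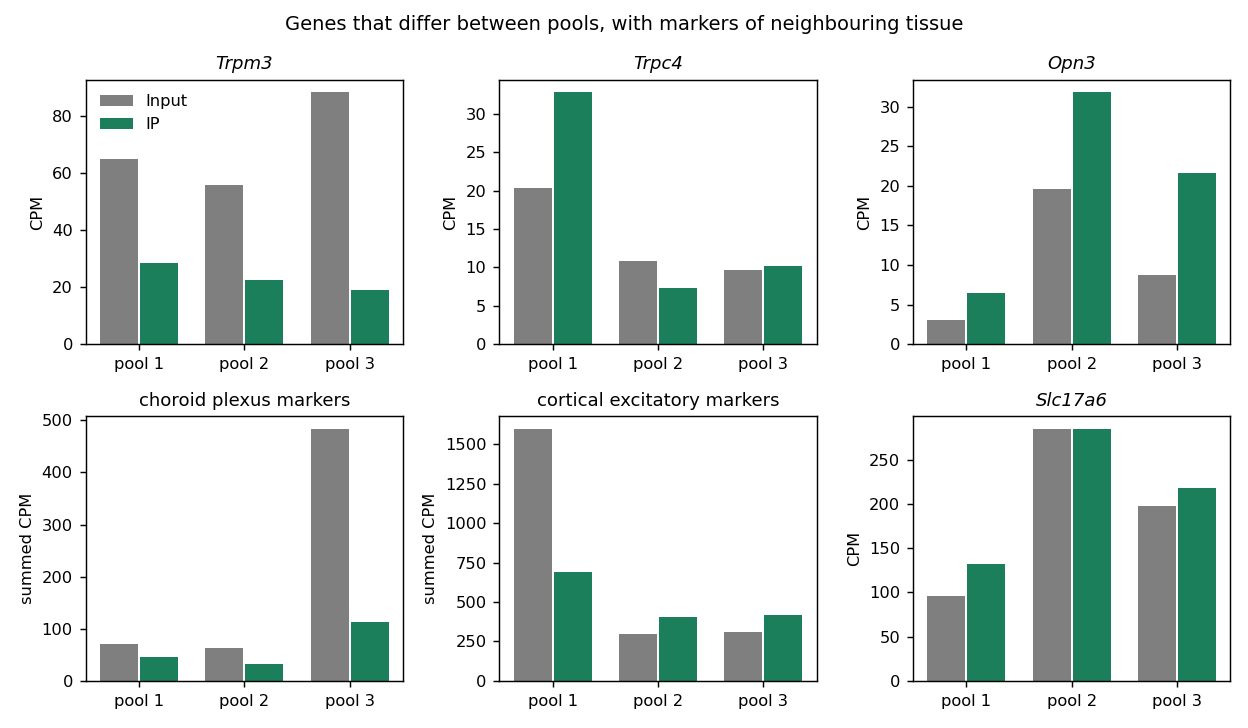
CPM of Trpm3, Trpc4, Opn3 and Slc17a6, and summed CPM of 8 choroid plexus and 9 cortical excitatory markers, by pool, with input in grey and IP in green (1 library per bar, so without error bars). Input of pool 3 is highest for Trpm3 (88.2 CPM) and for choroid markers (483 CPM), pool 1 is highest for Trpc4 and cortical markers, and pool 2 is highest for Opn3 and Slc17a6.

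Opn5 was close to the limit of detection. The gene (ENSMUSG00000043972, chromosome 17, 42867674 to 42922286, minus strand) had 20, 14 and 34 counts in the IP libraries and 0, 26 and 0 counts in the input libraries. All 3 IP libraries held reads, while input replicates 1 and 3 held none, and a count of 0 there allows up to 3 counts or 0.058 CPM, by counting error alone. In pool 2 the input was the higher of the pair, at 0.48 against 0.30 CPM. The log2 fold change was 1.55 ± 1.46 (SE; edgeR's quasi-likelihood test, adjusted p = 0.47), and 3.49 ± 1.97 with the replicate block (SE, adjusted p = 0.20, edgeR). Input replicate 2 is the only input library with reads of this gene, so fits without it compare IP with counts of 0 and are not read as tests.

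Levels were compared between genes per length, in the authors' FPKM. Opn3 had the highest mean in both groups and the widest spread, from 3.37 to 16.7 FPKM in IP and from 1.56 to 10.1 FPKM in input. In IP, Trpv2 came next at 5.28 ± 0.22 FPKM, then Trpm2 at 3.04 ± 0.65, Trpc1 at 2.72 ± 0.43, Trpc4 at 2.08 ± 1.72, Trpm7 at 1.71 ± 0.0325, Trpm3 at 0.95 ± 0.19, Trpm4 at 0.86 ± 0.20, Opn5 at 0.25 ± 0.10 and Trpc5 at 0.14 ± 0.0263 FPKM (SD, n = 3). Neighbours in this order overlapped in their libraries except Trpv2 and Trpm2, Trpm7 and Trpm3, and Trpm4 and Opn5. In input the order was Opn3, Trpc1, Trpv2, Trpm3, Trpm7, Trpm2, Trpc4, Trpc5, Trpm4 and Opn5, with gaps only below Trpm7, Trpc5 and Trpm4. Trpm3 was thus at rank 4 in input, with 2.80 ± 0.68 FPKM, and at rank 7 in IP. Trpm2 was at rank 6 in input, with 1.82 ± 0.14 FPKM, and at rank 3 in IP. Over the 6 libraries, 57.0% of the genes tested had a lower mean FPKM than Trpv2, 46.6% a lower one than Trpm2 and 7.94% a lower one than Opn5. The table's exon length for Trpc5 is 5014 bases and that of GENCODE M39 is 9070 bases. For Trpm4 these lengths are 10826 and 16060 bases, so that the FPKM of both genes depends on the gene model.

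**Figure D4:**
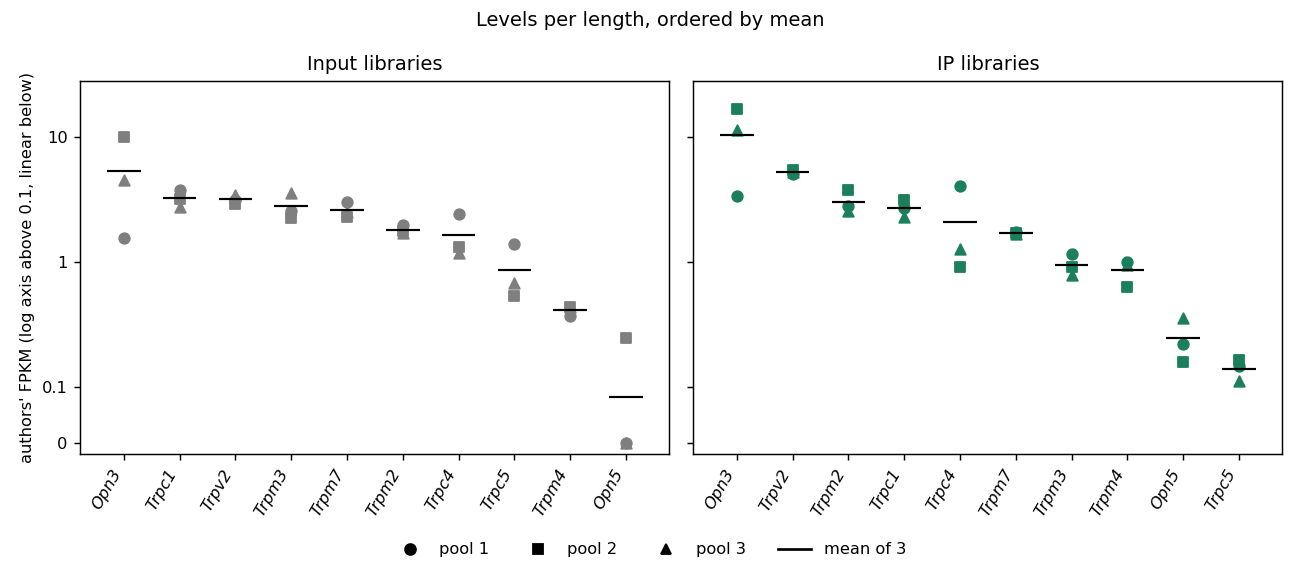
The authors' FPKM of the 10 genes in each library, input on the left and IP on the right, ordered by the mean (black bar), on an axis that is logarithmic above 0.1 and linear below. Opn3 leads both panels with a wide spread between pools, Trpm2 is at rank 6 in input and rank 3 in IP, and Opn5 is at 0 in 2 input libraries.

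By the likeness of pattern, the genes closest to Trpv2 over the 6 libraries were Ccdc177, 2810004N23Rik and Snrpb2, with Pearson's r from 0.994 to 0.996 in log2 CPM, among 4471 genes of like abundance. Of these, 2810004N23Rik was not called (adjusted p = 0.053, edgeR). Those closest to Trpm3 were Vps35l, Taf2 and Tbcel, with r from 0.985 to 0.990 among 4727 genes. Their log2 fold changes were smaller, at -0.35, -0.54 and -0.48 against -1.58 for Trpm3, and Vps35l was not called (adjusted p = 0.055, edgeR). For Opn3, taken up after its values were seen, they were Prmt6, Gm42303 and Rasl11a, with r from 0.985 to 0.999 among 3864 genes. These are descriptions over 6 libraries that share the difference between IP and input or the pools.

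The rest of the TRP superfamily was read from a list of its other genes. Of 20 other TRP channel genes listed, 18 were in the table and 15 were tested. Of these 1 rose and 2 fell, beside 12.9% and 17.1% of all genes tested, and the replicate block gave 2 higher, or 3 with the length correction added. The median log2 fold change was -0.32, against -0.07 for all genes tested. The sign of this median was not stable: it was 0.30 with the replicate block and 0.27 without input replicate 1. Pkd2l1, a channel gene known as a marker of neurons that contact the cerebrospinal fluid, had 0, 2 and 4 counts in IP against 79, 151 and 81 counts in input (adjusted p = 0.00292, edgeR's quasi-likelihood test). Its IP libraries were all at or near 0. Pkd2, the polycystin-2 gene, fell by 0.88 ± 0.20 on the log2 scale (SE, adjusted p = 0.014, edgeR), and lost its call without IP replicate 2 or 3 (adjusted p = 0.0575 and 0.0584, edgeR) and without pool 2 or 3 (adjusted p = 0.084 and 0.11, edgeR). Pkd2l2, a polycystin family gene, rose by 0.72 ± 0.14 (SE, adjusted p = 0.00676, edgeR), a call lost without pool 3 (adjusted p = 0.10, edgeR). It shares 15.7% of its exon bases with Fam13b on the opposite strand, and without strand information reads of the 2 genes cannot be told apart there. Mcoln1, the lysosomal channel and the most abundant of the list, was at 38.0 to 57.4 CPM in IP and 30.7 to 49.1 CPM in input (0.29 ± 0.23, SE, adjusted p = 0.39, edgeR).

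The classical temperature sensors of sensory nerves were near the floor, and are named here for that role, outside the rule for named genes. The cold sensor gene Trpm8 was at 0.26 to 0.87 CPM in IP and 0.13 to 0.35 CPM in input (adjusted p = 0.20, edgeR). The capsaicin receptor gene Trpv1 was at 0.13 to 0.30 CPM in IP and 0 to 0.68 CPM in input (adjusted p = 0.81, edgeR), and the irritant sensor gene Trpa1 at 0.13 to 0.32 and 0.12 to 0.62 CPM (adjusted p = 0.46, edgeR). Of 6 other opsin genes edgeR tested 2 and called 0, with 0 having an unadjusted p under 0.05. DESeq2 gave a p-value for 5 of them and called 0. Opn4, the melanopsin gene, had 14, 99 and 6 counts in IP and 4, 22 and 0 counts in input, highest in pool 2 of both groups, and Opn1mw, a cone opsin gene, was at 0.44 to 1.34 CPM in IP and 0.23 to 0.46 CPM in input.

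**Figure D5:**
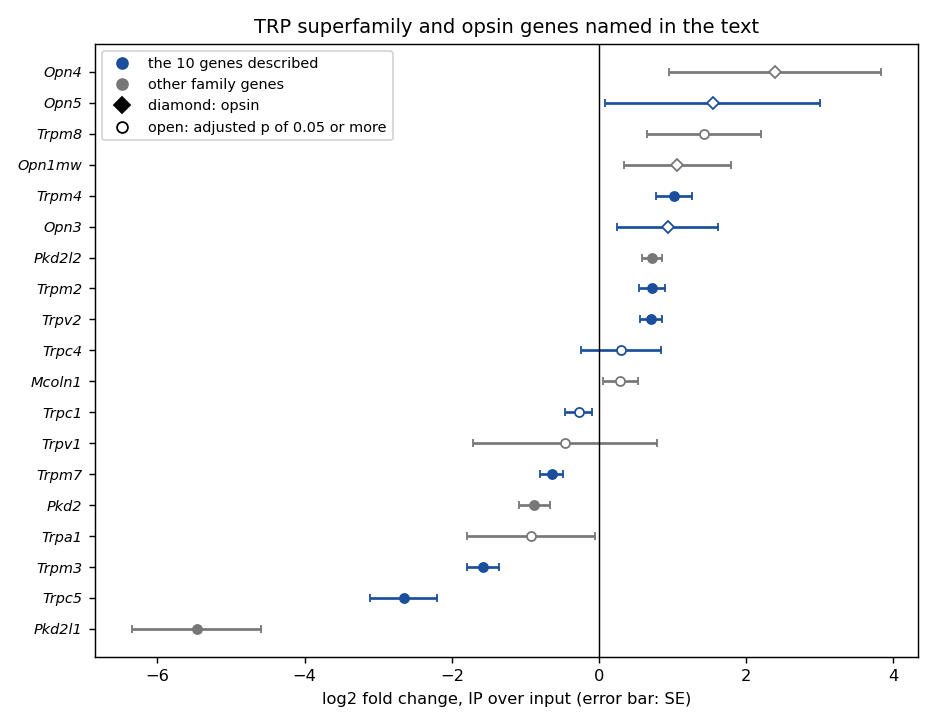
Log2 fold change of IP over input with SE for the TRP superfamily genes (circles) and opsin genes (diamonds) named in the text, the 10 genes of the set in blue and the others in grey, filled where the adjusted p was under 0.05 in edgeR's test. Apart from the 6 blue calls, Pkd2l2 is filled on the right and Pkd2 and Pkd2l1 on the left, and the error bars of Trpv1 and Opn5, both of low level, are wide.

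Genes that act on these channels were called about as often as genes in general. Of 20 genes of the phospholipase C, store-operated calcium and ADP-ribose pathways 2 rose and 4 fell (median log2 fold change -0.26), beside 12.9% and 17.1% of all genes tested. Those that rose were Nudt9, an ADP-ribose hydrolase related to the ligand-binding end of TRPM2, at 0.51 ± 0.15, and Orai2, a store-operated calcium channel gene, at 0.52 ± 0.14 (SE, adjusted p = 0.035 and 0.027, edgeR). Neither call was made with library totals as the only scaling (adjusted p = 0.079 and 0.055, edgeR), nor without input replicate 3 or any 1 IP library (adjusted p from 0.0651 to 0.105, edgeR), nor without pool 2 or 3 (adjusted p from 0.0601 to 0.210, edgeR), and Nudt9 also lost its call without pool 1 (adjusted p = 0.0880, edgeR). Nudt9 shares 31.9% of its exon bases with Gm43545 on the opposite strand, and without strand information reads there cannot be told apart. Gm43545 had a mean of 8.33 counts in IP and 61.3 in input. Cd38, which makes ADP-ribose and its cyclic form, was at 0.66, 0.48 and 0.36 CPM in IP and at 8.33, 10.2 and 12.4 CPM in input, a 20.5-fold difference (-4.36 ± 0.33, SE, adjusted p = 0.000112, edgeR). Itpr2, the IP3 receptor type of astrocytes, stood at a 3.99-fold lower level in IP and Plcb3, a phospholipase C gene, at a 4.34-fold lower one (adjusted p = 0.00216 and 0.00105, edgeR). Cd38 and Itpr2 kept their calls in all 18 alternatives, and Plcb3 lost its call only without pool 3 (adjusted p = 0.0517, edgeR). All 12 astrocyte markers were lower beside them, with a summed level of 883 to 1062 CPM in IP and 3519 to 4106 CPM in input and none at 0; their part in these falls was not tested. Gnaq, the G protein gene upstream of phospholipase C and the most abundant of the list, fell by 0.55 ± 0.17 (SE, adjusted p = 0.043, edgeR), a call kept in 9 of 18 alternatives. It was lost without input replicate 1 or 3, without any 1 IP library, without any pool and with the length correction (adjusted p from 0.0546 to 0.178, edgeR). Itpr1, the main neuronal IP3 receptor, was at 97.9 to 134 CPM in IP and at 109 to 381 CPM in input, with input replicate 1 the highest (-0.89 ± 0.44, SE, adjusted p = 0.17, edgeR). Plcb1 was called lower with the block alone among these genes (-0.48, adjusted p = 0.034, edgeR).

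Other temperature-gated channels gave no call in the unblocked fit of all 6 libraries, and markers of temperature-responsive preoptic neurons rose in part. Of 6 such channel and receptor genes edgeR called 0, and 1, Grik2, had an unadjusted p under 0.05 in edgeR. DESeq2 gave a p-value for 5 of the 6 and called 0. Kcnk10, a leak potassium channel gene named after its values were seen, was called higher in the blocked fit with length correction (0.69, adjusted p = 0.0477, edgeR) and without input replicate 2 (0.76, adjusted p = 0.0377, edgeR). Kcnk2, the heat-sensitive leak potassium channel, was at 56.0 to 65.1 CPM in IP and 55.6 to 84.7 CPM in input, and Grik2, a kainate receptor gene linked to cold sensing, at 29.7 to 38.3 and 38.8 to 55.3 CPM. Of 13 markers of temperature-responsive preoptic neurons 4 rose and 0 fell, beside 12.9% and 17.1% of all genes tested. Their median log2 fold change was 0.46, and the pan-neuronal and GABAergic medians were 0.56 and 0.81. A difference of these markers from those lists was not tested. The somatostatin gene Sst and the neurotensin gene Nts had the smallest adjusted p among the 13 markers, at 1.75 ± 0.21 and 1.39 ± 0.32 on the log2 scale (SE, adjusted p = 0.000836 and 0.013, edgeR). The count of 4 was 7 with the length correction, with or without the block, 1 without IP replicate 3 or pool 3 and 2 without pool 2. The fever receptor gene Ptger3 was at 0.55 to 1.47 CPM in IP against 1.95 to 2.59 CPM in input (-1.11 ± 0.46, SE, adjusted p = 0.10, edgeR), and the leptin receptor gene Lepr stood at -1.57 ± 0.81 (SE, adjusted p = 0.18, edgeR).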

How the data were processed

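The members and gene lists were chosen with earlier results of these data known. Genes are named by a rule written beside the lists: the members, every called gene and the 2 most abundant tested genes of the TRP, opsin, partner and temperature-gated channel lists, the 2 smallest adjusted p in each direction of the preoptic list, up to 2 markers of a cell type list, and the 3 genes most alike in pattern to the called member with the smallest adjusted p in each direction.

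Read counts per gene are as deposited by the authors, whole and not normalized, with HISAT2, featureCounts and mm39 named in the submitters' processing notes. Versions, annotation release and strand setting are not given in the sources used here, so antisense and overlapping reads may be shared. The authors' normalized signal is the deposited count divided by 1 size factor per library, and was not tested. FPKM values were scaled by the authors with the table's gene lengths, per the file headers. DESeq2 gave the log2 fold changes and the p-values that the authors deposited, per the submitters' processing notes.

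Counts were tested with edgeR 4.0.16 in R 4.3.3 (quasi-likelihood test, TMM factors, low-count filter by group, two-sided, Benjamini-Hochberg over 18640 genes). CPM uses effective library sizes, and log2 CPM a prior count of 2. DESeq2 1.42.0, other scalings and filters, a replicate block, a length correction and leaving out libraries or pools were the alternatives. The fits were checked on simulated data. IP and input of a number were taken as the same pool, by their replicate numbers. Their deviations from the group mean correlated at 0.26, 0.14 and 0.10, against -0.22 to 0.09 for different numbers. For pool 3 the values do not tell the pair apart, as IP replicate 3 was at 0.10 with input replicate 3 and at 0.09 with input replicate 2. Deviations within a group of 3 sum to 0, so these correlations are not independent. Libraries within a group differed beyond sampling noise (chi-square per degree of freedom 43.2 to 172), so none was a duplicate.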

Additional observations from a re-analysis of the deposited data

How the results depend on the processing

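Of the 10 genes, 6 were called under each other scaling, filter and tool and under the length correction, with 3 higher and 3 lower. The replicate block gave 7 called (4 higher, 3 lower, with Opn3 added) and the block with length correction 6 (4 higher, 2 lower). Blocked fits changed no other call of the 10 except that of Trpm7 with length correction. Leaving out 1 library or 1 pool gave 1 to 7 called genes, 0 to 4 higher and 1 to 3 lower, where the highest counts include Opn5 against input counts of 0; 1 called gene, Trpm3, was left without both libraries of replicate 3, with 0 higher and 1 lower. Over all genes the leave-outs gave 133 to 2630 higher and 742 to 3080 lower, both lowest without replicate 3. The called genes of the other TRP, opsin, partner, temperature-gated and preoptic lists numbered 13, with 21 under the block with length correction and 4 to 13 under the leave-outs. These lists held 15, 2, 20, 6 and 13 tested genes, and 30.0% of all genes tested were called either way. Under the block with length correction, 3329 of all 18640 genes were called higher and 3408 lower. The causes were not tested, and each leave-out also has fewer samples. Trpc4 turned to -0.63 without IP replicate 1 and to -0.22 without both libraries of replicate 1, and ranged from -0.63 to 0.71 over the leave-outs. Library totals alone moved the median of all genes by -0.11 (log2) and gave 1734 higher and 3678 lower. Opn5 had no value under the filter of at least 1 CPM. With 3 pools, p-values of the unblocked fits rest on the spread among libraries within a group, with the pairing left out. Those of the blocked fits rest on how the IP to input difference varies between pools. Low counts limit Opn5, Trpc5 and the sensory TRP genes.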
